A study of Mus musculus with 4 samples.

Results

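Nanog, Pou5f1, Sox2, Zfp42 and Esrrb encode transcription factors of the pluripotent state, and Trim28 encodes a corepressor that embryonic stem cells need. These 6 genes are described here in V6.5 mouse embryonic stem cells transfected with 1 of 2 short hairpins. The control hairpin was directed at GFP (shGFP) and the other at NCAPH2 (shNCAPH2), which belongs to the chromosome-organising complex condensin II, and each gave 2 libraries. They were taken by symbol from tables of 1517 named features, and all 6 were found. Every culture was at passage 3, had been selected for 5 days in puromycin at 2 µg/mL and was separated from irradiated feeder fibroblasts before total RNA was extracted and depleted of ribosomal RNA. Whether a group's replicates were grown separately is not stated, so the p-values rest on a spread that may be purely technical. They also do not say whether the cells were a clone or a pool, and Ncaph2 itself was not analysed here, so the knockdown was not checked on its own transcript.

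In embryonic stem cells the Pou5f1 product (OCT4) and SOX2 bind DNA side by side, at an octamer next to a SOX site, and together with NANOG they activate one another's genes and many others. Esrrb, an orphan nuclear receptor, and Zfp42, the zinc finger protein REX1, belong to the naive state that precedes the primed state of the later epiblast. TRIM28 is brought to DNA by KRAB zinc finger proteins and silences endogenous retroviruses there, and it is a general chromatin factor rather than a naive pluripotency factor.

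The deposited values were raw counts, and they describe a part of each library only. Counts of named features summed to 507891 and 429907 in shGFP and to 243628 and 272426 in shNCAPH2. Every named feature had a lower summed count in shNCAPH2, and the highest share kept was 67.8% of the shGFP count. A lower count in shNCAPH2 is therefore a property of the tables, and the results below concern how the 6 genes differ from each other and from the other features. In bulk RNA, fewer cells of a type and less RNA per cell cannot be told apart.

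The motif that joins these factors is shown first, in the bases just before the annotated start of the 3 genes whose window held it. Capitals mark the octamer core TTTGCAT or its reverse complement ATGCAAA, and in Nanog they run on into the neighbouring SOX site. The sequences are RefSeq's (GRCm38.p6), read in the direction of the gene, from chr6:122707389-122707450 (plus strand), chr8:43307163-43307219 (minus strand) and chr3:34649871-34649927 (plus strand).
Nanog: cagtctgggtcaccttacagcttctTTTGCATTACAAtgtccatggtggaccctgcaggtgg
Zfp42: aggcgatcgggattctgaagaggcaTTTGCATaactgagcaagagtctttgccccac
Sox2: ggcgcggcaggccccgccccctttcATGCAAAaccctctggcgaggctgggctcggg
On either strand, TTTGCAT lay within 250 bases before 4.12% of 32851 annotated starts, and the composite TTTGCATNACAA before 0.0335%. The composite was found for Nanog alone among the 6 genes, whose starts gave 9 windows in all. ACAATG, the SOX site that overlaps the end of the composite in Nanog, lay before 10.7% of starts, among them those of Nanog and 1 of Pou5f1. These matches describe the letters of the windows and were not related to the counts.

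The row of Nanog held far more counts than those of the other 5 genes in every library. Levels here are counts of a row per length. Which strand the counted reads came from is not given, so these levels cannot be taken as mRNA levels. The shGFP libraries held 2114 and 2345 Nanog counts and the shNCAPH2 libraries 1530 and 1243. Per kb of exon, its level was 943 and 1046 counts in the control libraries and 682 and 554 in shNCAPH2, which placed it 37th, 33rd, 27th and 35th of 1465 features with an annotated length. Both shNCAPH2 counts were below both shGFP counts.

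Zfp42 came next, with 59 and 35 counts in shGFP and 19 in each shNCAPH2 library. Its level was 31.4 and 18.7 counts per kb in shGFP and 10.1 in both shNCAPH2 libraries. The level of Nanog was 29.98 and 56.1 times that of Zfp42 in shGFP and 67.4 and 54.7 times in shNCAPH2. The groups did not overlap for Zfp42.

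For Pou5f1 the shGFP libraries held 39 and 21 counts, against 12 and 9 for shNCAPH2, and Sox2 had 36 and 18 against 16 and 17. Both groups of Pou5f1 counts were apart, and for Sox2 the lower shGFP library lay 1 count above the higher shNCAPH2 library. Per kb, Sox2 (17.5, 8.75, 7.78 and 8.26, shGFP libraries first) and Pou5f1 (17.3, 9.34, 5.34 and 4.0) changed places between libraries. Their order also depended on the length used: with the longest transcript in place of all exons, Pou5f1 was above Sox2 in 3 of 4 libraries instead of 1. OCT4 is known as an abundant transcription factor of these cells, yet its row held fewer counts than those of Nanog and Zfp42 in each library.

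Trim28 counts were 32 and 16 with the control hairpin and 12 and 18 with shNCAPH2, and it was the member whose groups overlapped. Its level was 7.92 and 3.96 counts per kb in shGFP, beside 7.18 and 5.81 for the median feature. In shNCAPH2 it was 2.97 and 4.46, beside a median of 2.41 and 2.71. Esrrb had the lowest counts, 11 and 13 in shGFP against 0 and 1 in shNCAPH2. The single count in shNCAPH2 replicate 2 is under the 3 counts that a count of 0 allows, so its level there is not measured beyond being low. The groups did not overlap in 5 of the 6 genes, against 88.4% of all named features, so this share is near that of the tables as a whole.

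**Figure D1:**
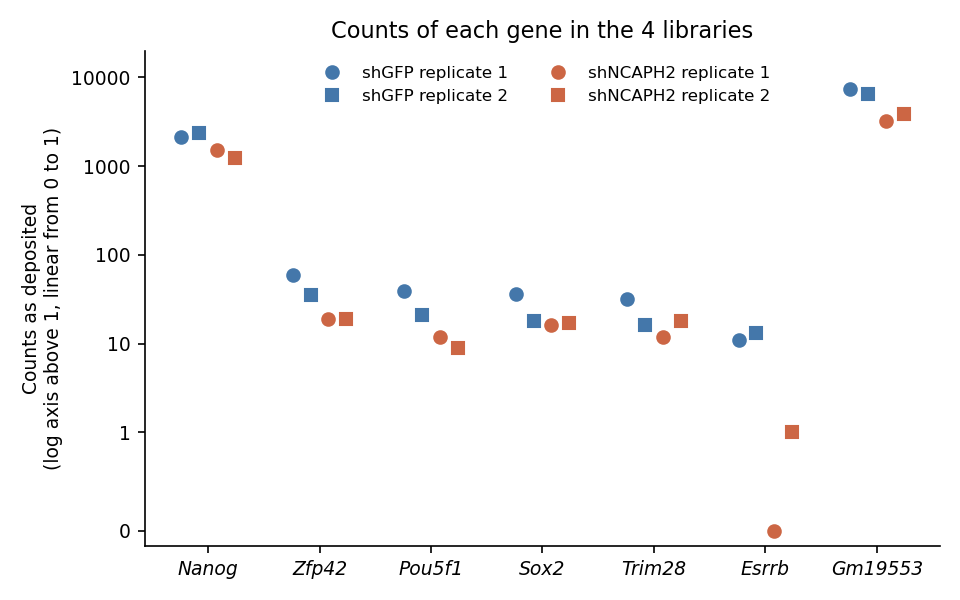
Deposited counts (vertical axis, log above 1 and linear from 0 to 1) of the 6 genes and of Gm19553, with 1 point per library, shGFP in blue and shNCAPH2 in orange, circles for replicate 1 and squares for replicate 2. Nanog and Gm19553 lie above 1000 in every library, and the other 5 genes lie at or below 59.

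The row of Gm19553 held far more counts than the row of Pou5f1. Gm19553, annotated as an antisense gene (chromosome 17, 35509077 to 35510551, minus strand, GRCm38), lies inside Pou5f1 (35506018 to 35510772, plus strand). Its row held 7459 and 6481 counts in the shGFP libraries and 3213 and 3894 in the shNCAPH2 libraries, which is 191 and 309 times the Pou5f1 count in shGFP and 268 and 433 times in shNCAPH2. Per kb of exon, the level of Gm19553 was 15099 and 13119 in shGFP and 6504 and 7883 in shNCAPH2, among the 5 highest features of each library. Nearly all counts of these 2 rows were in the Gm19553 row, and which strand the reads came from is not given.

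Of the 494 exon bases of Gm19553, 317 (64.2%) are also exon bases of Pou5f1 on the other strand, while they are 14.1% of the 2248 exon bases of Pou5f1. Of Pou5f1, 1931 exon bases lie outside Gm19553 exons, and the whole Pou5f1 row still held 9 to 39 counts. The overlap takes in the end of the coding sequence, shown here because a read from these bases differs between the genes in strand alone. The 60 bases are chr17:35510492-35510551 from the GENCODE M21 transcripts, each in its own gene's direction, with capitals for the Pou5f1 stop codon and its complement.
Pou5f1: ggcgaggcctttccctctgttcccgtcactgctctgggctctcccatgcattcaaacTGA
Gm19553: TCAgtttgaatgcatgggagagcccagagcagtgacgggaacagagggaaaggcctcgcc
The labels do not state whether the library kit or the counting kept strand, so how reads of the locus were divided between the rows was not tested, and the Pou5f1 row cannot be taken as the level of its mRNA. The same gap in the labels holds for every row, Nanog, Zfp42 and Esrrb included: which strand the counted reads came from is not given. The other 5 genes had no annotated exon on the opposite strand, against 40.1% of matched features that had one. The absence of an annotated partner does not settle the strand of the counts of these 5 genes. Of the 20 features with the most shGFP counts, 11 had an opposite-strand exon. What this means for the strand of the counts was not tested. Nanog has annotated processed pseudogenes (Nanog-ps1 and Nanog-ps2), as has Zfp42 (Zfp42-ps1), none of them listed in the tables, and reads shared with such copies are uncertain.

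**Figure D2:**
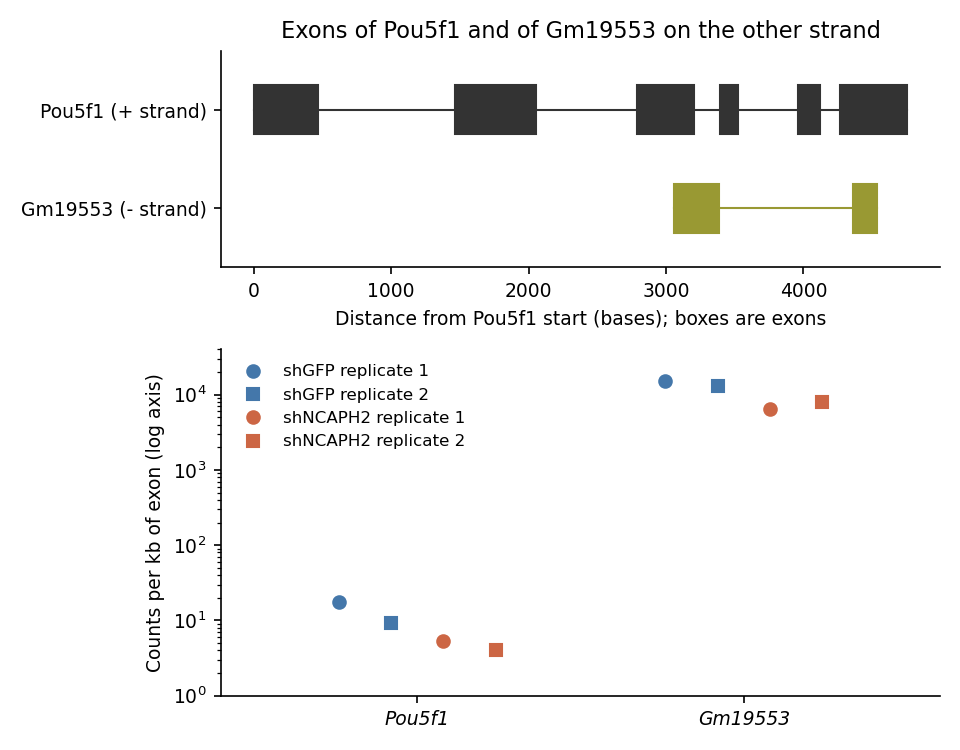
Upper panel: exons (boxes) of Pou5f1 and Gm19553 by distance in bases from the Pou5f1 start. Lower panel: counts per kb of exon on a log axis in the 4 libraries, shGFP in blue and shNCAPH2 in orange. Gm19553 lies between 6504 and 15099, and Pou5f1 between 4.0 and 17.3.

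The 6 genes kept different shares of their shGFP count. Trim28 kept 62.5% (30 of 48 counts), Nanog 62.2% (2773 of 4459) and Sox2 61.1% (33 of 54), near the upper end of the tables. Zfp42 kept 40.4% (38 of 94) and Pou5f1 35.0% (21 of 60), below the median feature at 46.7%. Esrrb kept 4.17% (1 of 24). Gm19553 kept 51.0%.

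Counting error alone left most of these shares wide. The exact 95% interval was 59.3% to 65.2% for Nanog, 38.4% to 96.0% for Sox2, 38.2% to 100.7% for Trim28, 27.0% to 59.5% for Zfp42 and 20.2% to 58.4% for Pou5f1. The interval of Esrrb, 0.101% to 25.6%, lay below those of Nanog, Sox2, Zfp42 and Trim28 and overlapped that of Pou5f1. Among 451 features with 30 to 120 summed shGFP counts, the range of Pou5f1, Sox2, Zfp42 and Trim28, the 5th percentile, median and 95th percentile of the share kept were 24.4%, 53.8% and 65.7%, so all 4 lay inside it. Among 85 features with at least 2000 shGFP counts, 27 kept more than Nanog. Among 669 features with 12 to 48 shGFP counts, 11 kept no more than Esrrb, itself included, and 8 of these had no shNCAPH2 count.

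**Figure D3:**
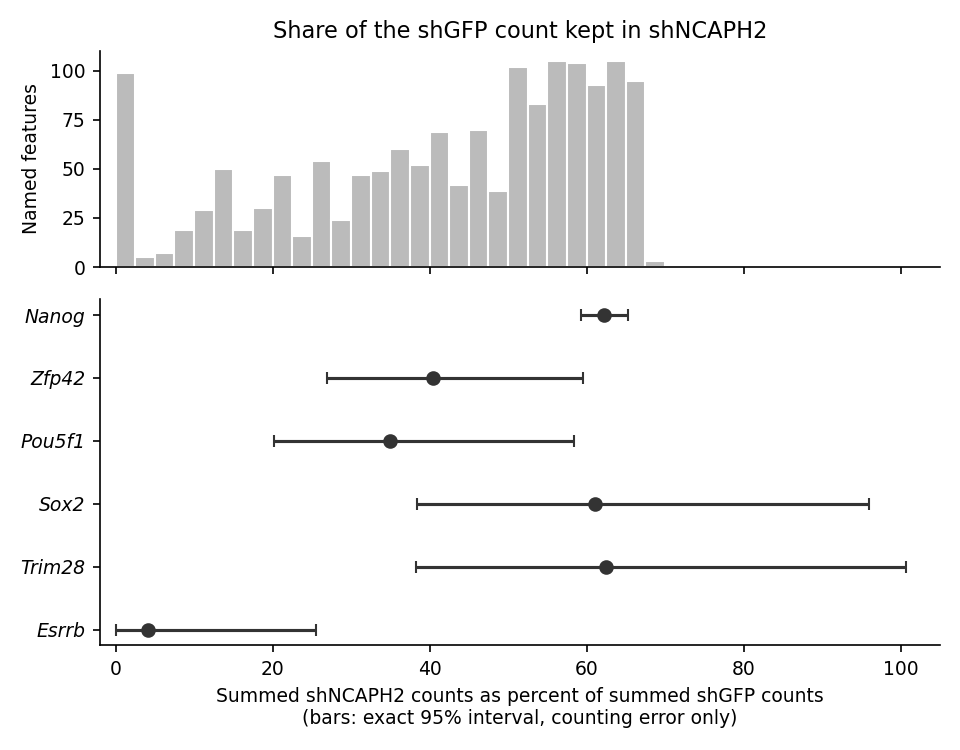
Upper panel: number of named features by the percent of the summed shGFP count kept in shNCAPH2. Lower panel: the 6 genes with exact 95% intervals for counting error. Nanog, Sox2 and Trim28 sit at 61.1% to 62.5%, Zfp42 and Pou5f1 at 40.4% and 35.0%, and Esrrb at 4.17%.

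None of the 5 genes that could be tested passed the test across all features. In edgeR's quasi-likelihood test with TMM scaling, fold changes are set against the loss of the bulk of tested features, so that 0 stands for an average loss. Of 896 tested features 9 passed as lower (1%) and 0 as higher (0%) at a Benjamini-Hochberg adjusted p under 0.05. Because every named feature had a lower summed shNCAPH2 count, with at most 67.8% kept, the choice of features limited what could pass as higher. The 0 is therefore a property of the tables and not a result about the cells. The relative log2 fold change was 0.13 ± 0.22 (SE) for Nanog, 0.13 ± 0.37 for Sox2 and 0.16 ± 0.39 for Trim28, and each of these 3 values was below 0 in at least 1 fit without 1 of the libraries. It was -0.46 ± 0.32 for Zfp42 and -0.67 ± 0.40 for Pou5f1, and the edgeR adjusted p was 0.999 for each of the 5. These 2 values stayed negative without any 1 library, but Zfp42 was at -0.19 without shGFP replicate 1, and Pou5f1 at -0.31 without shGFP replicate 1 and -0.35 without shNCAPH2 replicate 2. None of the 5 had an unadjusted p under 0.05 with edgeR, DESeq2 or limma voom, where 57, 33 and 49 of the 896 features did. Gm19553 was at -0.15 ± 0.18 (edgeR adjusted p = 0.999).

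Esrrb had too few counts for the filter. In the fit of all 1517 named features, in which 21 passed as lower (1.38%), its relative log2 fold change was -3.44 ± 1.02 (SE), with an unadjusted p of 0.0013 and an edgeR adjusted p of 0.077. An unadjusted edgeR p under 0.05 was found for 159 of these 1517 features. With equal library sizes in place of TMM, 284 of 928 features passed as lower (30.6%), among them Nanog (-0.69 ± 0.18, edgeR adjusted p = 0.040) and Esrrb (-4.28 ± 0.67, edgeR adjusted p = 0.029). Esrrb entered that fit through its shGFP counts alone, and with equal library sizes and no filter its edgeR adjusted p was 0.069, so the call rests on the filter. Zfp42 (-1.30 ± 0.39) and Pou5f1 (-1.50 ± 0.47) had edgeR adjusted p-values of 0.052 and 0.055 there, and Sox2 and Trim28 had 0.19 and 0.22. The median of the tested features moved from -0.0042 to -0.84 under that scaling, and the tables do not settle which scaling is right.

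**Figure D4:**
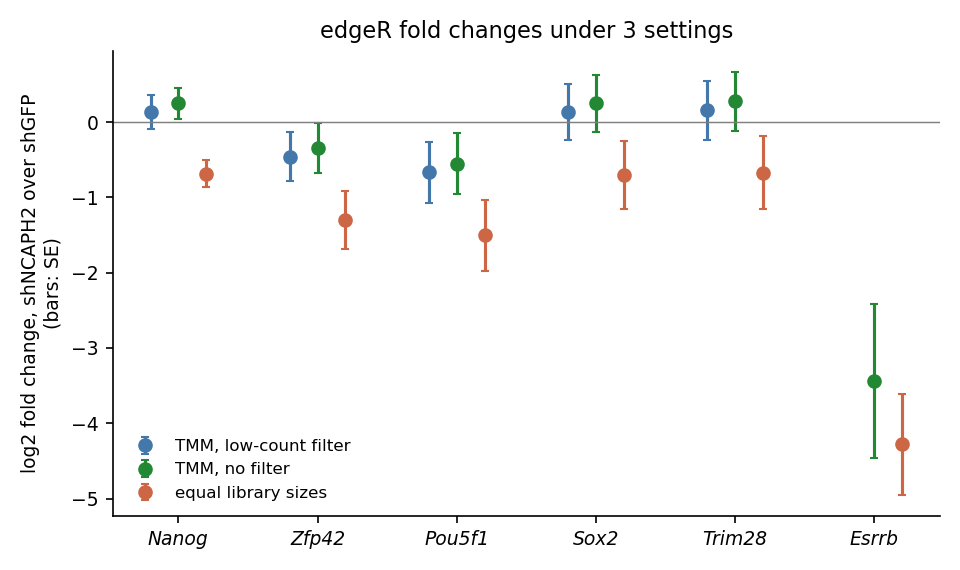
edgeR log2 fold changes of shNCAPH2 over shGFP with standard errors, under TMM with and without the low-count filter and with equal library sizes. Nanog, Sox2 and Trim28 lie above 0 under TMM and at -0.71 to -0.67 with equal library sizes, and Esrrb has no value in the filtered TMM fit.

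Ratios within a library do not depend on the scaling, so each gene was also set against Nanog. For each 1000 Nanog counts the shGFP libraries held 18.4 and 8.96 Pou5f1 counts and the shNCAPH2 libraries 7.84 and 7.24, and the groups did not overlap. The mean log2 ratio was -6.28 ± 0.74 (SD, n = 2) in shGFP and -7.05 ± 0.08 in shNCAPH2, a difference of -0.77 (two-sided exact permutation p = 0.33, adjusted over 5 ratios 0.83). An exact p of 0.33 is the smallest that 2 against 2 libraries allow. Most of the spread came from shGFP, whose libraries differed from each other more than shGFP replicate 2 did from shNCAPH2.

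Esrrb likewise was lower relative to Nanog, at 5.20 and 5.54 per 1000 in shGFP against 0 and 0.805 in shNCAPH2 (exact permutation p = 0.33, adjusted 0.83). These were 2 of 5 genes lower in both shNCAPH2 libraries, beside 37.7% of the other 1516 named features (0.33% were higher), which is near the background. Of all named features 85.7% kept a smaller share than Nanog. For most features the ratio of summed counts to Nanog was therefore lower in shNCAPH2. Zfp42, at 27.9 and 14.9 against 12.4 and 15.3, overlapped by 1 library (exact permutation p = 0.67, adjusted 1.0). Sox2 had 17.03 and 7.68 against 10.5 and 13.7, and Trim28 had 15.1 and 6.82 against 7.84 and 14.5. For these last 2 genes the shNCAPH2 values lay between the shGFP values, with differences of 0.06 and 0.07 on the log2 scale (exact permutation p = 1 for both).

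**Figure D5:**
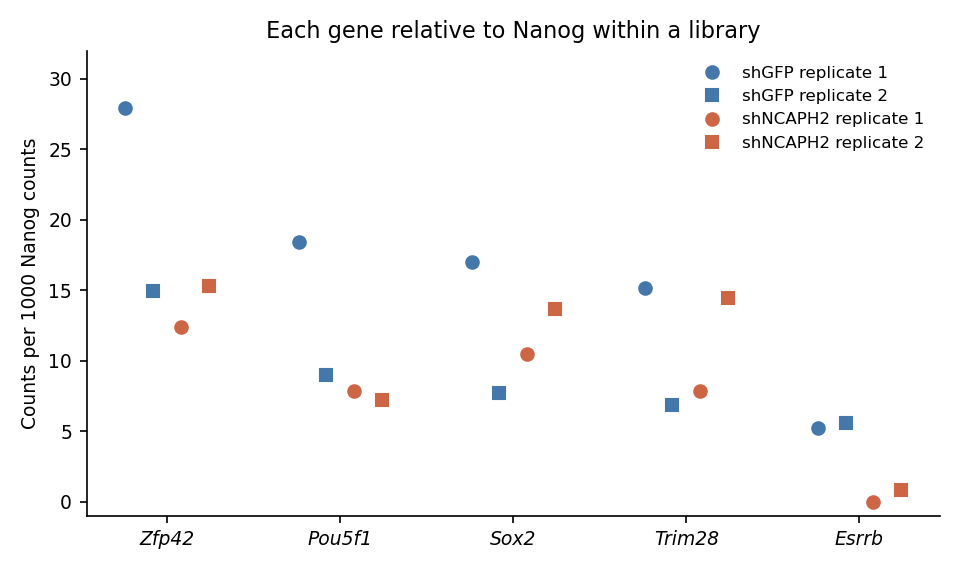
Counts of 5 genes per 1000 Nanog counts of the same library, shGFP in blue and shNCAPH2 in orange. The groups are apart for Pou5f1 and Esrrb and overlap for Zfp42, Sox2 and Trim28, and shGFP replicate 1 is the highest library for each gene except Esrrb.

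All 15 pairs among the 6 genes were compared. In 10 of them the within-library ratios of the groups did not overlap, among them Pou5f1 against Sox2 and against Trim28 (lower in shNCAPH2), Sox2 against Zfp42 (higher) and Zfp42 against Trim28 (lower). Nanog against Zfp42 overlapped. All 5 pairs with Esrrb were among the 10, and groups of 2 libraries that do not overlap reach an exact permutation p of 0.33 at best. Pairs share genes, and the share over all pairs of named features was not computed, here or for the intervals below. The 10 is therefore not a result about the 6 genes. By counting error alone, the ratio of the summed counts differed between the groups in 7 pairs, in that the exact 95% interval of the odds ratio left out 1. All 5 pairs with Esrrb were among them. The other 2 were Nanog against Pou5f1 (odds ratio 1.78, 1.06 to 3.08) and Nanog against Zfp42 (1.54, 1.04 to 2.31). The intervals of Pou5f1 against Sox2 (0.575, 0.280 to 1.16) and of Sox2 against Trim28 (0.978, 0.497 to 1.93) included 1 and allow differences of either sign. Those of Pou5f1 against Trim28 (0.562, 0.269 to 1.16), Sox2 against Zfp42 (1.51, 0.816 to 2.79) and Zfp42 against Trim28 (0.648, 0.344 to 1.22) also included 1. For these pairs, as for Nanog against Zfp42 and Pou5f1 against Sox2, the interval and the overlap of the libraries pointed to different answers. None of the intervals covers the spread between libraries.

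The spread between the shGFP libraries went the same way in 4 of the genes. From shGFP replicate 1 to replicate 2 the counts of Pou5f1, Sox2, Zfp42 and Trim28 differed by factors of 0.538, 0.5, 0.593 and 0.5. The factor was 1.11 for Nanog and 1.18 for Esrrb. Over all named features the median factor was 0.789, the factor of the summed counts was 0.846, and 24.1% of features were higher in replicate 2. Between the shNCAPH2 libraries Nanog was lower in replicate 2 (factor 0.812) and Trim28 higher (1.5), with a factor of 1.12 for the summed counts.

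Few other pluripotency genes were in the tables. Of 35 genes of the naive network 7 were listed, Nanog, Pou5f1, Sox2, Zfp42, Esrrb and Trim28, which the list includes, and L1td1, an RNA-binding protein of pluripotent cells, with 36 and 22 counts against 17 and 7 (shGFP first, here and below). Of the 6 tested, 0 passed in edgeR, DESeq2 or limma voom, and the median relative log2 fold change was -0.15, beside -0.0042 over all tested features. Without Trim28, an alternative chosen after seeing the data, it was -0.43 over 5 tested genes. Of 14 formative and primed genes 1 was listed, the DNA methyltransferase Dnmt3b (20 and 7 against 2 and 8 counts). Of 19 genes of LIF, BMP and WNT signalling 2 were listed, the BMP receptor Bmpr1a (30 and 10 against 7 and 8) and Ctnnb1, which encodes beta-catenin (14 and 8 against 5 and 3). Exons of Bmpr1a overlap Gm17110 on the opposite strand, and exons of Ctnnb1 overlap Ulk4. Bmpr1a was tested and did not pass, and Ctnnb1 was below the filter. The genes not listed were not analysed here.

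Some partners of the 6 proteins were listed too. Of 18 genes for TRIM28 partners and heterochromatin, leaving out Trim28 and Zfp42 themselves, 3 were listed and 2 tested, and 0 passed. The third, the histone gene H3f3b, was below the filter. Dnmt1, the maintenance DNA methyltransferase, had 42 and 40 against 25 and 20 counts, and Cbx1, an HP1 protein, had 41 and 32 against 21 and 20. Of 21 genes for NuRD and other protein partners 3 were listed, the remodeller Chd4 (55 and 46 against 31 and 12), the deacetylase Hdac2 (20 and 10 against 6 and 5) and the remodeller Smarca4 (16 and 14 against 5 and 12), and 0 of the 2 tested passed. No tested gene of these lists had an unadjusted p under 0.05 with edgeR, DESeq2 or limma voom.

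Few markers of other cells were among the listed features. Of 24 germ layer and lineage markers 2 were listed, Mixl1 (7 and 9 against 2 and 4 counts) and Stmn2 (8 and 5 against 3 and 3). Of 22 fibroblast markers, which would mark feeder cells, 2 were listed, and together they gave 63 and 66 counts against 32 and 29. Nearly all of these were Igfbp7, whose exons overlap Polr2b on the opposite strand, and Pdgfrb was at 0 in both shNCAPH2 libraries. Per 1000 Nanog counts the sum was 29.8 and 28.1 in the control libraries against 20.9 and 23.3. Of the 1516 named features other than Nanog, 37.7% were lower relative to Nanog in both shNCAPH2 libraries. Igfbp7 kept 49.6% of its shGFP count, beside 46.7% for the median feature. The part of feeder cells in the results was not tested.

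For each gene, the 2 features with the most similar counts over the 4 libraries were found among named features within 2-fold of its total. The measure was the root-mean-square difference of log2(count + 0.5), centred on the mean of the 4 libraries. Gm gene models and RIKEN names were left out. Candidates numbered 36 for Nanog, 367 for Pou5f1, 339 for Sox2, 263 for Zfp42, 461 for Esrrb and 376 for Trim28. How near a match would be expected among so many was not computed, and shared regulation was not tested. Nearest to Nanog were Ing4, which encodes a histone-binding subunit of acetyltransferase complexes (difference 0.03, 1484 and 1732 against 1060 and 883 counts), and Ccnt1, which encodes cyclin T1 (0.04, 2154 and 2385 against 1452 and 1265). Both were higher in shGFP replicate 2 than in replicate 1, as Nanog was, which follows from how they were picked. Nearest to Pou5f1 were Cuedc2 (48 and 27 against 15 and 12) and Hdac2, and nearest to Trim28 were Rsl1d1 (33 and 18 against 13 and 19) and Kif2c, a mitotic kinesin (35 and 16 against 12 and 18). Nearest to Zfp42 were Eno1b and St13, and nearest to Sox2 were Cd160 and Hist1h2ba. Nearest to Esrrb were Rel (7 and 8 against 0 and 1) and Dock5 (17 and 12 against 0 and 2), at larger differences of 0.32 and 0.37. Among these near features, exons of Ccnt1, Cuedc2 and Cd160 overlap an exon of another gene on the opposite strand.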

How the data were processed

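Each library has 1 table of counts, deposited by the authors without scaling, with the same 1618 rows in each. TopHat2 2.0.10, the build mm9 and edgeR (no version) are named in the submitters' processing notes. The positions in the tables nevertheless matched GRCm38 (1465 of 1517 named features overlapped a GENCODE M21 gene of the same symbol, 1275 with the same start or end). The counter, its strand setting and the choice of features are not given in the sources used here. The 101 rows without a symbol (22.2% to 23.3% of counts) stayed out of library sizes and tests.

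Counts were tested with edgeR 4.0.16 in R 4.3.3 (filterByExpr, TMM, glmQLFit, group alone, Benjamini-Hochberg over all tested features), after a check on simulated counts. SEs were derived from the log2 fold change and the F statistic (size of the change over root F). Levels used exon bases of GENCODE M21 within the deposited start and end. Intervals of shares kept and of odds ratios are exact, conditional on the totals (Clopper-Pearson for shares), at 95%, and cover counting error only. Esrrb's ratio to Nanog was tested with 0.5 added to each count. Genes, lists and tests were chosen with earlier results of these data known. The rule named the 6 genes, listed members of the gene lists, features alike over the 4 libraries, and opposite-strand genes. Alternatives were RLE factors, equal library sizes, no filter, at least 10 counts in every library, a replicate block, DESeq2 1.42.0, limma voom 3.58.1, features without an opposite-strand exon, each library left out, a pseudocount and another length.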

Additional observations from a re-analysis of the deposited data

How the results depend on the processing

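The count of features past the threshold as lower, 9 with all libraries, was 16 with RLE factors, 284 with equal library sizes, 21 without a filter, 4 with at least 10 counts in every library, 4 with a replicate block, 0 among 424 tested features without an opposite-strand exon (edgeR, 28 at an unadjusted p under 0.05) and, when 1 library was left out, 12 to 18 (14 without shGFP replicate 1, 18 without shGFP replicate 2 and 16 without shNCAPH2 replicate 1). What causes this range was not tested. With equal library sizes Nanog moved from 0.13 to -0.69, Sox2 from 0.13 to -0.71 and Trim28 from 0.16 to -0.67, which follows the shift of the median to -0.84. Without 1 library Nanog ranged from -0.069 to 0.39, Sox2 from -0.16 to 0.56, Trim28 from -0.13 to 0.58, Zfp42 from -0.67 to -0.19 and Pou5f1 from -0.92 to -0.31, and Esrrb (no filter) from -6.34 to -2.63. The sign was negative without shGFP replicate 1 or shNCAPH2 replicate 1 for Nanog, without shGFP replicate 2 for Sox2, and without replicate 2 of either group for Trim28. Where 1 library was left out, its arm had 1 sample, assumed to vary like the other group. Zfp42, Pou5f1 and Esrrb kept a negative value in every alternative that tested them. Nanog, under equal library sizes, was the only gene of the 6 whose side of the threshold changed in its own set of alternatives, and Esrrb passed with equal library sizes only where the low-count filter was applied, which it met through shGFP alone (edgeR adjusted p = 0.029, against 0.069 without the filter). The difference of the mean log2 ratio to Nanog ranged, without 1 library, from -0.51 to 0.64 for Sox2, from -0.51 to 0.64 for Trim28, from -1.29 to -0.25 for Pou5f1, from -1.02 to -0.12 for Zfp42 and from -4.10 to -2.21 for Esrrb. The labels do not say that a replicate number marks a shared day or batch, and deviations of same-numbered libraries showed a correlation of -0.06 over 896 features, so the block was not used as a pairing; it changed no call among the 6 genes. Counts of 0 to 59 limit what can be said of every gene except Nanog.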
